A study of Rattus norvegicus with 6 samples.

Results

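The genes described here encode the voltage-gated sodium and calcium channels of rat brain. They were found by their symbols (Scn with a number and a, Scn with a number and b, and all Cacna1, Cacna2d and Cacnb genes), and 32 of the 30560 genes in the count tables matched: 10 pore-forming α subunits and 4 β subunits of sodium channels, and 10 pore-forming α1, 4 α2δ and 4 β subunits of calcium channels. Their expression was followed by single-nucleus RNA sequencing in neurons and oligodendrocyte precursor cells (OPCs) of male wild-type Wistar rats, 12 weeks old, at 48 h after a Sham operation or after the middle cerebral artery of the right side had been closed for good (MCAO). There were 6 libraries, each a pool of nuclei from 1 hemisphere of several rats: 4 Sham-operated rats gave Sham L (left) and Sham R (right), 3 rats whose infarctions were moderate gave mMCAO contra and mMCAO ipsi, and 4 rats whose infarctions were severe gave the sMCAO libraries, likewise contra and ipsi. In both MCAO groups the left hemisphere lay contralateral and the right ipsilateral to the lesion. Sham, MCAO contra and MCAO ipsi were compared as 3 groups with 2 libraries each. The Sham libraries come from the same rats, as do a contra library and its ipsi library, and MCAO libraries of 1 group differ in how severe the infarction was. The spread within groups therefore does not measure the spread between rats.

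Voltage-gated sodium channels open on depolarization and carry the upstroke of the action potential. Their α subunits form the pore, and their β subunits set gating and anchor the channel in the membrane. Voltage-gated calcium channels turn depolarization into calcium entry, which releases transmitter at terminals and signals to the nucleus from the soma; here α1 subunits form the pore, while α2δ and β subunits bring it to the membrane and tune it. OPCs are dividing glia that receive synapses from neurons and carry some of these channels themselves. In ischemic tissue, sodium and calcium entry through such channels is a textbook part of the damage to neurons.

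Nuclei were assigned to classes by a gate on marker genes, none of them a channel gene, so the class names stand for gates and each should be read as "-like". The gate took 44315 of 73649 nuclei. The neuron classes were upper layer (6775 nuclei), layer 6 type (6693) and other cortical glutamatergic neurons (7176), subcortical glutamatergic neurons (895), medium spiny neurons (MSNs) of the direct pathway (D1, 2914) and of the indirect pathway (D2, 2646), interneurons of the parvalbumin type (2459) and the somatostatin type (1523), interneurons from the caudal ganglionic eminence (CGE, 1439) and other GABAergic neurons (308), and there were 1530 OPCs. Cholinergic neurons (209 nuclei, with as few as 11 in a library) were not tested. Levels are given as CPM, the UMIs of a gene per 1000000 UMIs of the class in that library, and log2 fold changes come from edgeR.

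The labels were set beside their markers. These are genes of the gate itself, so a high level in the own class follows from the gate and is no separate check. Drd2 reached 1001.3 CPM in D2 MSNs, Pdgfra, the growth factor receptor of OPCs, 537 CPM in OPCs, and the OPC list summed to 11813 CPM in OPCs against 2318 in the next class. Drd1 was low (77.1 CPM in D1 MSNs, at most 33.2 elsewhere), and the list of D1 markers alone was higher in vascular nuclei (2099 CPM) than in D1 MSNs (709 CPM), so that class rests on general MSN markers too. The list of upper layer markers alone was likewise higher in ependymal nuclei (2871 CPM) than in the upper layer class (1870 CPM). The parvalbumin type was named without Pvalb, which was not analysed here, from a list that summed to 7253 CPM there and 4819 CPM in the subcortical class. In the subcortical class Slc17a6, its defining transporter, was at 52.4 CPM, below Slc17a7 (133.7 CPM), which marks cortical neurons. By the gate's own markers, these 4 names are among the less certain ones. The marker list shared by the parvalbumin and somatostatin types summed to 7755 CPM in the somatostatin type. It was higher in CGE interneurons (16001 CPM), OPCs (11200 CPM) and other GABAergic neurons (8394 CPM). Of the nuclei nearest to the other GABAergic class, the gate took 6.98%, and a stricter gate (below) left 0 to 5 in a library. Libraries held 33012945 (sMCAO ipsi) to 52513380 UMIs (mMCAO contra). Neuron nuclei of sMCAO ipsi were deeper than those of the other libraries, with a median of 6039 UMIs against 2042 to 3593.5 in D1 MSNs, for example. They were also fewer in most neuron classes. There were 213 D1 MSNs in sMCAO ipsi against 396 to 669 in each other library, and 376 upper layer neurons against 1040 to 1530. Libraries shared 118 to 281 barcodes in pairs.

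Of the 32 genes, 27 passed the filter on low counts in at least 1 of the 11 tested classes, and 15 passed it in all 11. The 5 genes tested nowhere were Scn4a of skeletal muscle, Scn10a and Scn11a of sensory neurons, Cacna1f of the retina and Cacna2d4. Each of them averaged at most 2.43 CPM in every tested class. Cacna1s, the α1 subunit of skeletal muscle, was tested only in upper layer neurons, with a highest average of 1.34 CPM. These low genes serve here as the floor of the measurement. Because the filter keeps a gene more easily where it is high, counts of changed genes below are over the genes tested, not over all 32.

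Among the sodium channel α subunits, Scn1a, which supports fast firing, was highest in the parvalbumin type, with 776 and 790 CPM in Sham (L, R), 871 and 891 CPM in MCAO contra (moderate, severe) and 871 and 727 CPM in MCAO ipsi (moderate, severe). All 6 libraries lay well above the average of 438 CPM in subcortical neurons, the lowest class. Scn2a, a channel of the axon initial segment, hardly varied between neuron classes: it was at 436, 456, 458, 469, 492 and 561 CPM in the same order of libraries in the somatostatin type and at 388 CPM on average in D2 MSNs, its lowest class. Scn3a, which is best known from the developing brain, was highest in D1 MSNs at 285, 252, 287, 320, 411 and 308 CPM. Its lowest class was the other cortical neurons, at an average of 139 CPM. Scn8a, the main channel of mature initial segments and nodes, had its highest level in layer 6 type neurons (556, 521, 589, 586, 400 and 375 CPM) and its lowest in the somatostatin type (277 CPM on average). Here both ipsi libraries were below the other 4.

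Scn9a, known mainly from peripheral sensory neurons, was a low gene in most central classes, averaging 23.0 CPM in layer 6 type neurons. In subcortical neurons it stood at 51.5, 75.1, 81.2, 96.1, 59.2 and 107 CPM. In the few cholinergic nuclei it reached 212, 197, 245, 205, 261 and 250 CPM, so that every cholinergic library lay above every library of the subcortical class. Scn7a, a channel linked to sodium sensing, passed the filter in 3 classes only. Of the β subunits, only Scn3b averaged at least 100 CPM in a neuron class. It was highest in D2 MSNs, with 146, 144, 139, 157, 159 and 174 CPM, and lowest in the parvalbumin type at 17.0 CPM on average. Scn4b, a β subunit abundant in the striatum, was tested in 6 classes, and Scn2b in 9.

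For the calcium channels of terminals, Cacna1a (P/Q-type) was highest in the parvalbumin type, with 827, 849, 882, 861, 810 and 789 CPM, and lowest in D1 MSNs at 465 CPM. Cacna1b (N-type) was highest in CGE interneurons, with 483, 479, 479, 536, 487 and 530 CPM. Upper layer neurons came close, at 434 CPM on average, and D2 MSNs were lowest at 201 CPM. The L-type genes were split between classes. Cacna1c peaked in D2 MSNs (1316, 1305, 1398, 1459, 1210 and 1079 CPM) and was lowest in layer 6 type neurons (597 CPM). Cacna1d peaked in the parvalbumin type instead (866, 821, 888, 938, 813 and 721 CPM) and was lowest in D2 MSNs (430 CPM).

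Cacna1e (R-type) had the widest range of the high-voltage activated channels. In D2 MSNs it was at 1353, 1260, 1134, 1227, 1219 and 1183 CPM, while the parvalbumin type averaged 73.6 CPM and the somatostatin type 662 CPM. The T-type genes, whose channels open near rest and drive bursts, divided the classes among themselves. Cacna1g was highest in the somatostatin type (118, 113, 127, 112, 129 and 153 CPM), nearly level with CGE interneurons (119 CPM on average), and lowest in D1 MSNs (5.37 CPM). Cacna1i was highest in D2 MSNs (158, 119, 145, 138, 104 and 105 CPM) and lowest in CGE interneurons (17.0 CPM). Cacna1h stayed below 100 CPM in all neuron classes.

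The auxiliary subunits also differed between classes. Cacna2d1, a target of gabapentinoid drugs, was at 1306, 1343, 1393, 1420, 1586 and 1531 CPM in upper layer neurons, against averages of 76.3 CPM in the parvalbumin and 79.2 CPM in the somatostatin type. Cacna2d2, the other gabapentinoid target, had the opposite order, with 248, 227, 262, 246, 200 and 220 CPM in the parvalbumin type and 7.9 CPM in upper layer neurons. Cacna2d3 was highest in D1 MSNs (3960, 3693, 3843, 3994, 3476 and 3316 CPM), followed by D2 MSNs at 3314 and the somatostatin type at 3117 CPM, while the parvalbumin type averaged 156 CPM. The 2 interneuron types thus differed widely in Cacna2d3 and Cacna1e. Cacnb2 was highest in D2 MSNs, with 4595, 4345, 4387, 5258, 4747 and 4161 CPM, and lowest in the parvalbumin type at 327 CPM. Cacnb4 ranged from 919, 894, 920, 845, 943 and 1033 CPM in D1 MSNs to 472 CPM in CGE interneurons. Gene lengths and capture differ between genes, so these levels compare classes within a gene and not one gene with another. Highest and lowest rank the tested neuron classes of the gate only. Clusters outside the gate, described below, could lie beyond them. In the cluster led by Chst9 and Foxp2, Scn3a averaged 319 CPM (D1 MSNs 311 CPM) and Cacna1c 1412 CPM (D2 MSNs 1295 CPM).

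**Figure D1:**
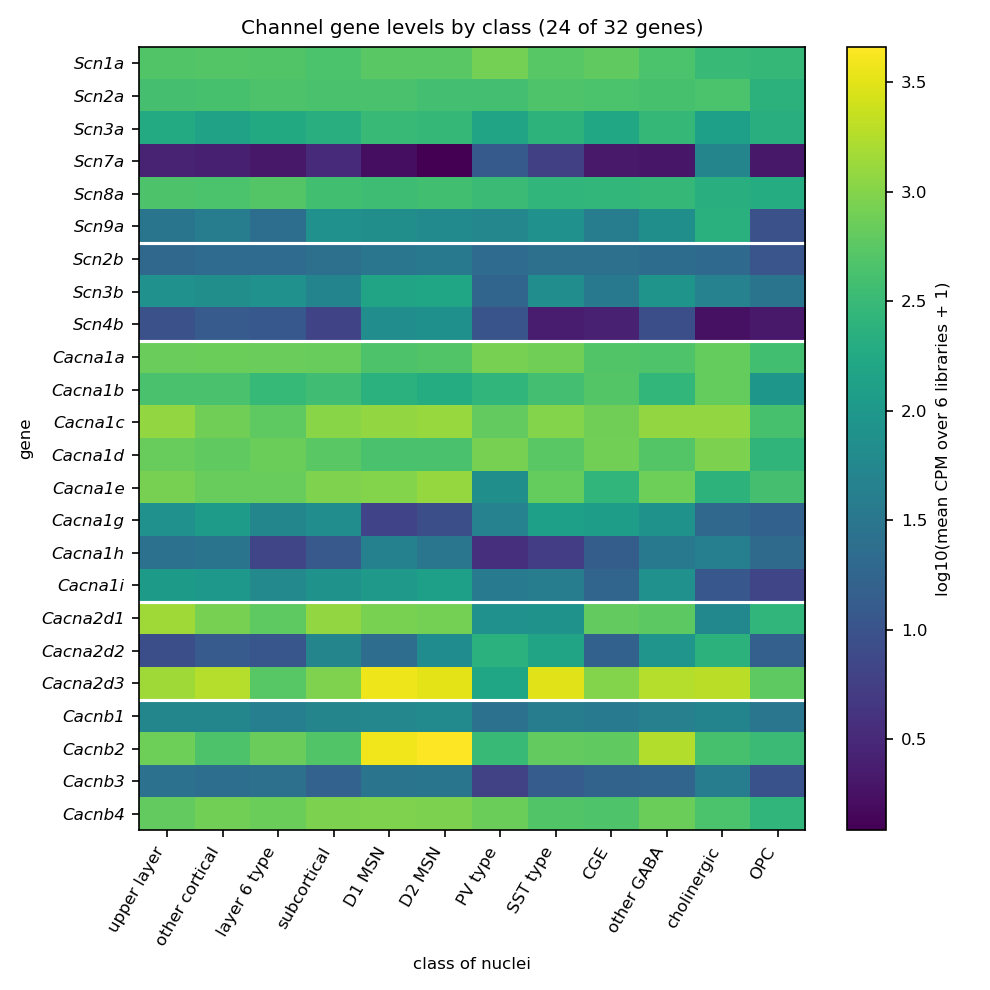
Heat map of mean levels over the 6 libraries, as log10 of the mean CPM plus 1, for 24 of the 32 channel genes (rows, with white lines between the 5 families) in 12 marker-gated classes (columns); yellow is high and dark blue low. Cacnb2 and Cacna2d3 are brightest in MSNs, Cacna2d1 is dark in the parvalbumin (PV) and somatostatin (SST) types, and the OPC column is darker than the neuron columns for most genes.

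To ask how far neuron types differ in these genes whatever the condition, classes were compared within libraries (edgeR, library as a block). Between MSNs and cortical glutamatergic neurons, 13 of 25 tested channel genes differed (52.0%), 10 higher and 3 lower in MSNs, against 29.4% of all genes tested. Cacnb2 led, with 4155 ± 423 CPM (SD, n = 6 libraries) in MSNs and 616 ± 27.9 CPM in cortical neurons, a log2 difference of 2.79 ± 0.07 (SE, adjusted p = 1.54e-12). The β subunits followed: Scn4b was at 71.1 ± 21.9 against 10.5 ± 3.94 CPM (2.79 ± 0.10), Scn3b at 149 ± 8.46 against 73.8 ± 10.4 CPM (1.07 ± 0.06) and Scn2b at 31.5 ± 5.04 against 19.8 ± 3.86 CPM (0.73 ± 0.08). The α2δ genes Cacna2d2 (42.3 against 10.1 CPM, 2.14 ± 0.09) and Cacna2d3 (3524 against 1348 CPM, 1.44 ± 0.08) were higher too, as were Scn9a (1.11 ± 0.06), Scn3a (0.92 ± 0.05), Cacna1h (0.91 ± 0.08) and Cacna1e (0.64 ± 0.05). Among the lower genes were Cacna1g (6.46 ± 2.49 against 85.9 ± 10.2 CPM, -3.69 ± 0.14) and Cacna1b (218 against 396 CPM, -0.82 ± 0.06). Scn2a was level, at 412 ± 18.7 and 422 ± 32.8 CPM (0.01 ± 0.05, adjusted p = 0.859).

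Interneurons from the medial ganglionic eminence (MGE, the parvalbumin and somatostatin types together) differed from cortical glutamatergic neurons in 13 of 26 tested genes (all genes 28.2%), mostly downwards: 3 were higher and 10 lower. Cacna2d2 was at 202 ± 20.6 against 10.1 ± 2.43 CPM (4.28 ± 0.08, adjusted p = 3.61e-15) and Cacna2d1 at 77.8 ± 10.1 against 970 ± 85.4 CPM (-3.70 ± 0.08, adjusted p = 1.46e-14), so the 2 α2δ genes changed places between the classes. Scn7a (9.05 against 1.43 CPM, 2.57 ± 0.28) and Scn9a (62.4 against 31.2 CPM, 1.01 ± 0.11) were the other higher genes. The cortical level of Scn7a was as low as that of the genes taken as the floor. Scn7a did not pass the filter between MSNs and the same cortical neurons, so it entered here through the interneurons. Its higher call thus follows in part from the filter and is no separate result. Among the other genes lower in the interneurons were Cacna1h (-2.54 ± 0.19), Cacnb3 (-1.77 ± 0.13), Cacna1e (-1.43 ± 0.06), Cacna1i (-1.30 ± 0.06), Scn3b (-1.16 ± 0.07), Cacnb1 (-0.79 ± 0.09), Scn4b (-0.74 ± 0.23) and Scn8a (-0.64 ± 0.05). All these values are for the parvalbumin and somatostatin types summed and need not hold for each type. As given above, Cacna1e was far lower in the parvalbumin than in the somatostatin type. Cacna2d3, which also differed widely between the types, was not called in the sum (-0.20 ± 0.05). Scn1a was at 719 ± 66.4 against 494 ± 38.4 CPM, a log2 difference of 0.48 ± 0.05 (adjusted p = 3.5e-07) that stayed under the 0.6 required for a call. Of the 10 lower calls, 1 changed sign when clusters took the place of the gate.

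Between D1 and D2 MSNs, 1 of 24 tested genes was called (4.17%, all genes 3.45%): Cacna2d2, at 64.8 ± 10.7 CPM in D2 and 22.4 ± 4.1 CPM in D1 MSNs (1.57 ± 0.11, adjusted p = 1.05e-12). Cacna1h, at 29.9 ± 8.79 against 44.8 ± 13.0 CPM, came close to the limit from the other side (-0.59 ± 0.11, adjusted p = 0.000117). It was among 7 further genes past the p threshold and under the fold limit, with Cacna1i (0.33), Cacna1e (0.31) and Cacnb2 (0.28) higher in D2 MSNs, and Cacna1b (-0.21), Scn2a (-0.16) and Cacna2d3 (-0.16) lower. OPCs were lower than cortical glutamatergic neurons in 21 of 25 tested genes (84.0%, all genes 40.5% in either direction) and higher in none. The 4 genes without a call included Scn3a, at 211 ± 50.4 CPM in OPCs and 166 ± 29.8 CPM in the neurons (0.02 ± 0.13, adjusted p = 0.911), and the low genes Cacna2d2 (0.06 ± 0.34) and Cacna1h (-0.15 ± 0.30).

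**Figure D2:**
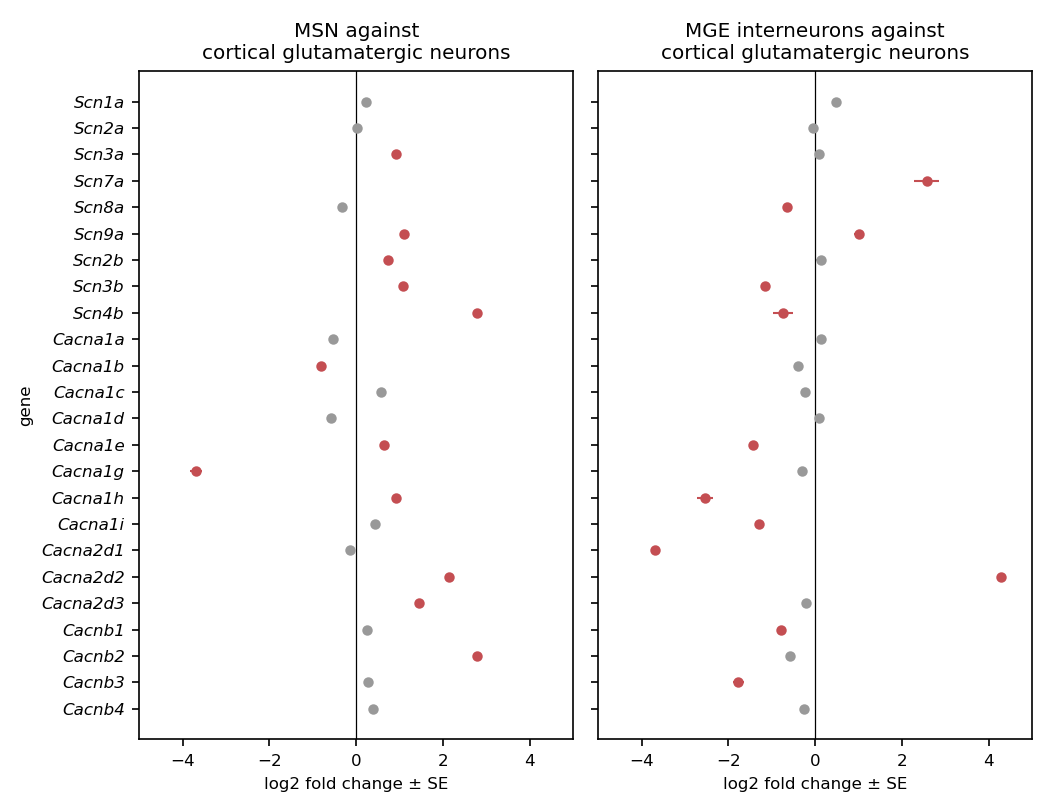
Log2 fold change of tested channel genes (rows) between MSNs and cortical glutamatergic neurons (left) and between MGE interneurons and cortical glutamatergic neurons (right), with bars for the SE; red points are called genes and grey points are not. Cacna2d2 and Cacna2d1 lie at opposite ends for MGE interneurons, at 4.28 and -3.70, and Cacnb2, Scn4b (both 2.79) and Cacna1g (-3.69) lie outermost for MSNs.

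Across conditions, the question was which channel genes differed in the infarcted hemisphere. Over the 10 neuron classes there were 238 tests of a gene in a class. Against Sham, MCAO ipsi had 12 calls (5.04%), 5 higher and 7 lower, where all genes in the same classes had 3.13%. Against MCAO contra there were 17 calls (7.14%), 6 higher and 11 lower, where all genes had 1.99%. MCAO contra against Sham gave no call in edgeR (all genes 0.16%). At an unadjusted p under 0.05 there were 17 higher and 16 lower tests. The share over all genes at that threshold is not given here for the summed classes, so these counts are no result about channel genes. The median log2 fold change of the channel genes was -0.08, -0.11 and 0.01 in the 3 comparisons. Both ipsi comparisons share the ipsi libraries, so their calls are not independent. Together with the OPCs, 14 of the 27 tested genes were called somewhere and 13 nowhere, among them Scn1a, Scn2a, Scn8a, Cacna1a, Cacna1c, Cacna1d and Cacnb4. Of the 33 calls in all, 3 remained in each of the 6 fits that left out 1 library, and no direction changed in these fits.

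**Figure D3:**
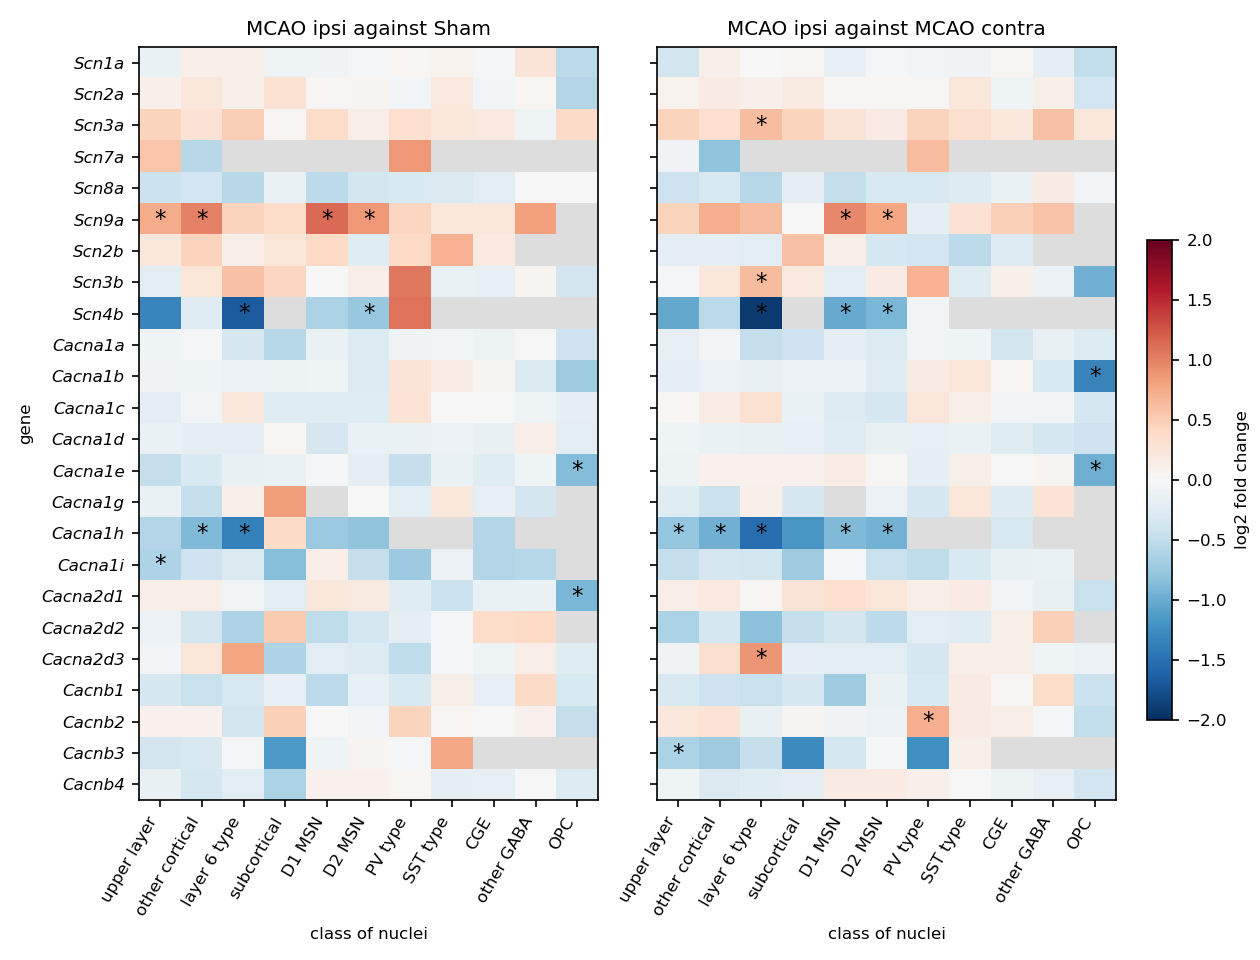
Heat map of log2 fold changes of the same 24 channel genes (rows) by class (columns) for MCAO ipsi against Sham and against MCAO contra; the colour scale ends at -2 and 2, stars mark called genes and grey marks genes not tested. Scn9a and Scn3a are mostly higher and Cacna1h, Scn8a and Scn4b mostly lower in MCAO ipsi. The SST type, CGE interneurons and other GABAergic neurons are among the classes without a star.

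The main sodium channel gene to rise was Scn9a, called in 4 classes. In D1 MSNs it was at 47.3 and 48.0 CPM in the Sham libraries, at 53.0 (mMCAO) and 60.5 CPM (sMCAO) in the contra libraries, and at 81.1 (mMCAO) and 137 CPM (sMCAO) in the ipsi libraries. The ipsi libraries were above the other 4, with sMCAO ipsi highest. The log2 fold change was 1.14 ± 0.20 (SE) against Sham (adjusted p = 0.00291) and 0.96 ± 0.20 against MCAO contra (adjusted p = 0.0108). D2 MSNs had the same order, with 51.5, 38.9, 49.9, 49.7, 63.9 and 111 CPM (0.86 ± 0.21, adjusted p = 0.0137 against Sham, and 0.79 ± 0.20, adjusted p = 0.0221 against MCAO contra). Upper layer neurons had 21.5, 20.8, 25.7, 29.9, 35.2 and 42.3 CPM (0.74 ± 0.14 against Sham, adjusted p = 0.0174; against MCAO contra 0.45, adjusted p = 0.0837). Other cortical neurons had 24.4, 26.3, 34.0, 33.3, 36.5 and 76.3 CPM (1.0 ± 0.25 against Sham, adjusted p = 0.0341). In all, both ipsi libraries were above the other 4 in 6 of 10 neuron classes. Such counts of classes, also those for Scn3a, Scn8a and Cacna1h below, only describe the levels. All classes come from the same 6 libraries, and the share over all genes was not counted. In oligodendrocytes, which are not neurons, Scn9a was at 3.69 to 14.9 CPM. Without sMCAO ipsi, the calls against Sham remained in D1 MSNs (0.72, adjusted p = 0.0242) and upper layer neurons (0.67, adjusted p = 0.00306). The other 4 calls were lost without it: the log2 fold change against Sham was 0.43 (adjusted p = 0.374) in D2 MSNs and 0.49 (adjusted p = 0.0137) in other cortical neurons, and that against MCAO contra was 0.54 (adjusted p = 0.105) in D1 and 0.36 (adjusted p = 0.466) in D2 MSNs. The calls against Sham were also lost without Sham L (adjusted p = 0.105 in D1 MSNs, 0.204 in upper layer and 0.254 in other cortical neurons) or without Sham R (0.0614 in D1 MSNs, 0.152 in D2 MSNs, 0.147 in upper layer and 0.132 in other cortical neurons), that in other cortical neurons without mMCAO contra (0.0756) or sMCAO contra (0.0708), and those against MCAO contra without mMCAO contra (0.171 in D1, 0.213 in D2 MSNs) or sMCAO contra (0.078 and 0.148).

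Scn3a was called once, in layer 6 type neurons, where it was at 153 and 158 CPM in the Sham, 155 and 152 CPM in the contra and 249 and 209 CPM in the ipsi libraries. The 4 non-infarcted libraries lay within 6 CPM of each other and both ipsi libraries were above them. Against MCAO contra the log2 fold change was 0.61 ± 0.10 (adjusted p = 0.00673), and against Sham it was 0.49 ± 0.10 (adjusted p = 0.0175), under the fold required for a call. The call was lost without mMCAO contra (0.64, adjusted p = 0.104), sMCAO contra (0.58, adjusted p = 0.101) or mMCAO ipsi (0.45, adjusted p = 0.00106). The ipsi libraries were the 2 highest in 7 of 10 neuron classes. Scn8a had the opposite order and no call: both ipsi libraries were below the other 4 in 7 of 10 classes. In D1 MSNs it was at 378, 404, 394, 398, 243 and 322 CPM. Its log2 fold change against Sham was -0.55 ± 0.09 in layer 6 type neurons (adjusted p = 0.00584), -0.52 in D1 MSNs (adjusted p = 0.0233), -0.39 in other cortical neurons (adjusted p = 0.0346) and -0.37 in D2 MSNs (adjusted p = 0.0492), each past the p threshold and under the fold limit.

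Scn4b was the sodium channel β subunit with most calls, all lower. In D1 MSNs it was at 73.8 and 59.5 CPM in the Sham, 80.2 and 104 CPM in the contra and 46.9 and 42.8 CPM in the ipsi libraries. Both ipsi libraries were below the other 4, and the contra libraries were highest. Against MCAO contra it fell by 1.01 ± 0.19 on the log2 scale (adjusted p = 0.00516), and against Sham the log2 fold change was -0.63 (adjusted p = 0.0737). In D2 MSNs it was at 86.4, 75.2, 88.7, 100, 54.8 and 44.2 CPM, with log2 fold changes of -0.76 ± 0.18 against Sham (adjusted p = 0.011) and -0.92 ± 0.17 against MCAO contra (adjusted p = 0.00157). The last was among the 3 calls that remained without any 1 library (-1.11 to -0.76, adjusted p at most 0.049). Layer 6 type neurons held little Scn4b, with 14.5, 10.4, 15.6, 17.1, 5.29 and 2.35 CPM (81, 44, 88, 50, 28 and 7 UMIs). It fell there by 1.67 ± 0.33 against Sham (adjusted p = 0.0122) and by 1.92 ± 0.32 against MCAO contra (adjusted p = 0.00629). Oligodendrocytes had 0, 0, 2.95, 11.6, 10.3 and 1.39 CPM in the same order of libraries. The layer 6 type level was thus below that of oligodendrocytes in mMCAO ipsi and little above it in sMCAO ipsi. The D1 call was lost without sMCAO contra (-0.84, adjusted p = 0.0905), the D2 call against Sham without Sham L (-0.64, adjusted p = 0.229) or sMCAO ipsi (-0.61, adjusted p = 0.0851), and the layer 6 type calls without Sham L (-1.38, adjusted p = 0.246), Sham R (-1.90, 0.0726), mMCAO contra (-1.99, 0.0922) or sMCAO contra (-1.89, 0.0626).

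Scn3b was higher in layer 6 type neurons against MCAO contra, where 4 libraries lay between 61.7 and 67.2 CPM, mMCAO ipsi was at 80.1 CPM and sMCAO ipsi at 126 CPM (0.64 ± 0.16, adjusted p = 0.0398). The call was lost without mMCAO contra, sMCAO contra, Sham L or Sham R, with adjusted p up to 0.243, and without sMCAO ipsi the value was 0.33 (adjusted p = 0.0656). Scn2b, the neighbour of Scn4b, was called nowhere.

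**Figure D4:**
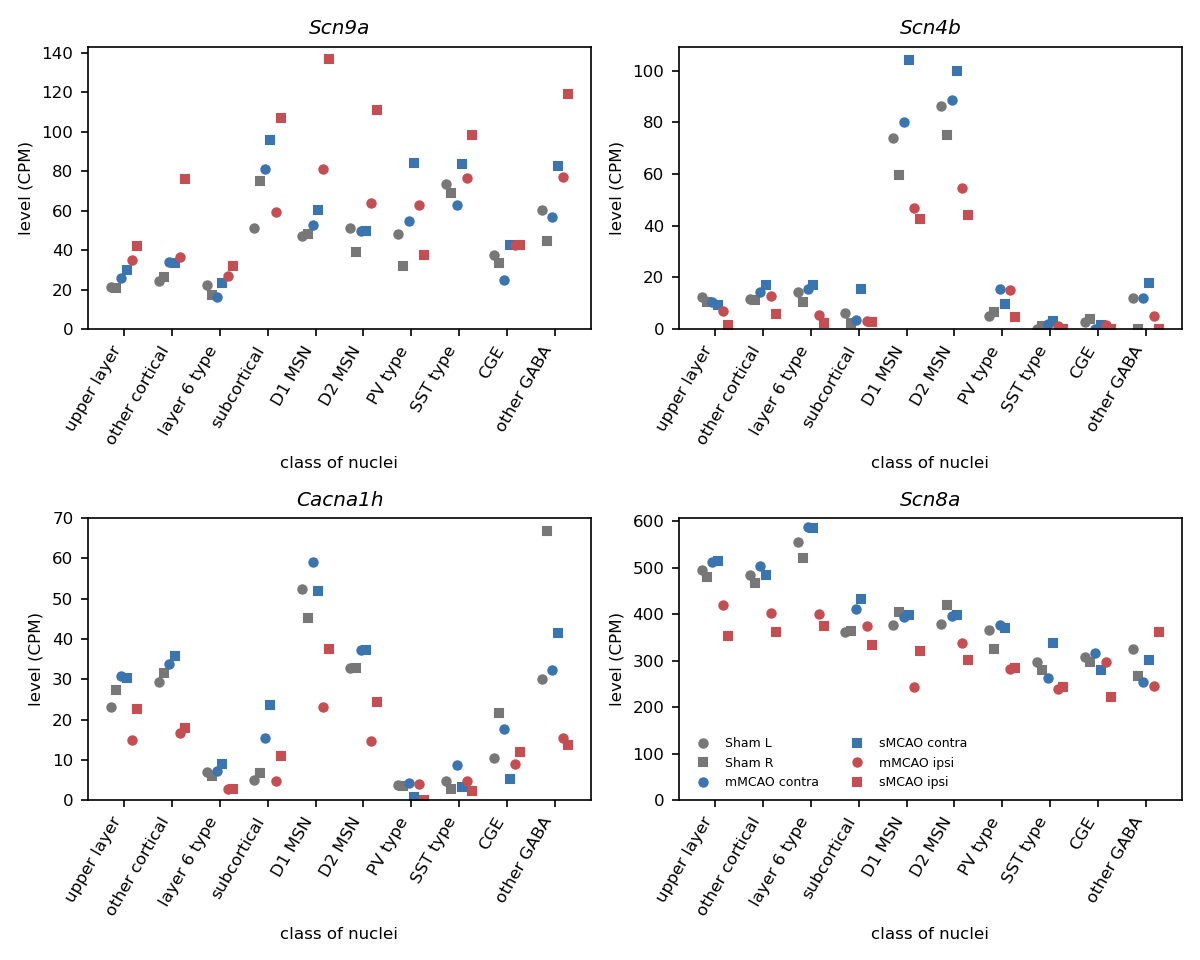
Levels in CPM of Scn9a, Scn4b, Cacna1h and Scn8a in the 10 neuron classes, with 1 point per library: grey for Sham, blue for MCAO contra and red for MCAO ipsi, with squares for Sham R and the sMCAO libraries. Scn9a reaches 137 CPM in D1 MSNs of sMCAO ipsi, Scn4b is at 46.9 and 42.8 CPM in D1 MSNs of the ipsi libraries, below the other 4, and Scn8a is lowest in the ipsi libraries in most classes.

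The promoters of Scn9a and Scn3a, which were higher in MCAO ipsi, and of Scn4b, which was lower, are shown with that of Scn2b, the neighbour of Scn4b, which had no call. No protein-coding gene lies between Scn2b and Scn4b, nor between Scn1a and Scn9a or Scn3a and Scn2a, although these neighbours did not share their calls. The sequences are the 250 bases before the annotated start in RefSeq, assembly GRCr8, which is a newer build than the mRatBN7.2 of the counts: Scn9a chr3:71701378-71701627 on the minus strand, Scn3a chr3:70666199-70666448 on the minus strand, Scn4b chr8:54343623-54343872 and Scn2b chr8:54322133-54322382, both on the plus strand. Capitals mark a match of TGANTCA, a loose pattern for an AP-1 site searched on either strand, with any base allowed at N. It is the only match in these windows, has T at N, and its first base lies 61 bases before the start of Scn3a. A match of this loose pattern does not show that the stretch is an AP-1 site.
Scn9a promoter: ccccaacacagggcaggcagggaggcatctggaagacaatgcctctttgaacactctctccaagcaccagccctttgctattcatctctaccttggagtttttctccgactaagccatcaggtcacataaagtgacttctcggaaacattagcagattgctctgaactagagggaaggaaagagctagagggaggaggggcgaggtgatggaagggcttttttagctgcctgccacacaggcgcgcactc
Scn3a promoter: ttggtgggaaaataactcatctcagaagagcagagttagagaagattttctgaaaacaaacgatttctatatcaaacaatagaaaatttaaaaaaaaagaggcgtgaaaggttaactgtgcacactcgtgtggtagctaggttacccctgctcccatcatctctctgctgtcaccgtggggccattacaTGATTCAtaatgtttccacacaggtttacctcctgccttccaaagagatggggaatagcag
Scn4b promoter: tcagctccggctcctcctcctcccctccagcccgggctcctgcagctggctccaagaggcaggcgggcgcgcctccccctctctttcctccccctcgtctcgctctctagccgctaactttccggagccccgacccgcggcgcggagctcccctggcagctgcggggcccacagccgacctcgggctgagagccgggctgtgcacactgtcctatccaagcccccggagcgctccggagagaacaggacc
Scn2b promoter: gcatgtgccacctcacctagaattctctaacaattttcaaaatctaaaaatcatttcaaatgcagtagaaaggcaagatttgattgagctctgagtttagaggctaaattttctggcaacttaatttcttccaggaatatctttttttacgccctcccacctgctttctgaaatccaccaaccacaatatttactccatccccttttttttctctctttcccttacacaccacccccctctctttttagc
The pattern TGANTCA, with any base at N, occurred in 6.34% of 33469 promoters searched. The other motifs searched on either strand, with no match in these 4 windows, were the TATA box (TATAAA, 12.9% of promoters), the GC box (GGGCGG, 30.5%), the cAMP response element (TGACGTCA, 1.59%) and the core of the hypoxia response element (ACGTG, 16.6%). The share of G and C was 52.4% for Scn9a, 41.6% for Scn3a, 71.6% for Scn4b and 38.8% for Scn2b. Of the 32 genes, 22 had an entry in the promoter table.

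Among the calcium channel α1 subunits, the T-type genes carried all neuronal calls, and all were lower. Cacna1h was called in 5 classes. In other cortical neurons it was at 29.3 and 31.6 CPM in the Sham, 33.8 and 35.9 CPM in the contra and 16.7 and 17.8 CPM in the ipsi libraries, moderate before severe. The replicates of each group lay close together, with the ipsi libraries far below the rest. The log2 fold change was -0.89 ± 0.12 against Sham (adjusted p = 0.00363) and -0.96 ± 0.12 against MCAO contra (adjusted p = 0.00415). Layer 6 type neurons had lower levels, 7.0, 5.9, 7.26, 8.9, 2.65 and 2.69 CPM (39, 25, 41, 26, 14 and 8 UMIs), and log2 fold changes of -1.35 ± 0.34 (adjusted p = 0.0355) and -1.53 ± 0.34 (adjusted p = 0.0213). In the other 3 classes only the comparison with MCAO contra was called: upper layer neurons (23.1, 27.4, 30.8, 30.3, 14.9 and 22.7 CPM, -0.78 ± 0.18, adjusted p = 0.0401), D1 MSNs (52.4, 45.2, 59.2, 51.9, 23.1 and 37.4 CPM, -0.89 ± 0.22, adjusted p = 0.0287) and D2 MSNs (32.7, 32.7, 37.3, 37.3, 14.7 and 24.4 CPM, -0.95 ± 0.25, adjusted p = 0.0287). There mMCAO ipsi was the lowest library and sMCAO ipsi lay between it and the rest, so the gene was not lower with severe than with moderate infarction. Both ipsi libraries were below the other 4 in 6 of 10 neuron classes.

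The calls in other cortical neurons were lost without Sham L (-0.93, adjusted p = 0.0691), mMCAO contra (-1.0, 0.0748) or sMCAO contra (-0.94, 0.0505), with little change of the value. Elsewhere the Cacna1h calls were lost without mMCAO contra, sMCAO contra, Sham L or Sham R (D2 MSNs apart from the 2 Sham libraries) and, except for layer 6 type neurons against MCAO contra, without mMCAO ipsi. The values were then -1.68 to -1.20 in layer 6 type neurons (adjusted p up to 0.347), -0.80 to -0.52 in upper layer neurons (up to 0.236), -0.97 to -0.60 in D1 MSNs (up to 0.25) and -0.96 to -0.65 in D2 MSNs (up to 0.242), with the value nearest 0 in the last 3 classes without mMCAO ipsi. Cacna1i, the T-type gene highest in D2 MSNs, was lower in upper layer neurons, at 123 and 114 CPM in the Sham, 116 and 113 CPM in the contra and 79.5 and 88.4 CPM in the ipsi libraries. Both ipsi libraries were below the other 4. The log2 fold change was -0.61 ± 0.10 against Sham (adjusted p = 0.0104) and -0.48 against MCAO contra (adjusted p = 0.0264). The call was lost without Sham L (-0.55, adjusted p = 0.192) or Sham R (-0.69, adjusted p = 0.0993). Cacna1g, the third T-type gene, had no call across conditions. The high-voltage activated genes Cacna1a to Cacna1e had no call in any neuron class.

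Auxiliary calcium channel subunits had 3 neuronal calls, each in 1 class and against MCAO contra. Cacnb2 rose in the parvalbumin type, the class where it is lowest: 318 and 286 CPM in the Sham, 252 and 278 CPM in the contra and 425 and 400 CPM in the ipsi libraries. The ipsi libraries stood above the other 4. The log2 fold change was 0.73 ± 0.11 (adjusted p = 0.00049) and remained called without any 1 library (0.65 to 0.77, adjusted p at most 0.0498). Against Sham it was 0.45 ± 0.11 (adjusted p = 0.0219), under the fold limit. Cacna2d3 rose in layer 6 type neurons (460, 381, 371, 478, 523 and 1027 CPM, 0.89 ± 0.23, adjusted p = 0.0411), which was mostly sMCAO ipsi: without it the value was 0.36 (adjusted p = 0.0124). That call was also lost without mMCAO contra (adjusted p = 0.354), sMCAO contra (0.145), Sham L (0.115) or Sham R (0.112). Cacnb3 fell in upper layer neurons (23.3, 26.3, 33.6, 30.1, 18.5 and 24.0 CPM, -0.64 ± 0.15, adjusted p = 0.0409), where sMCAO ipsi lay within the Sham range. This call was lost without any 1 library other than sMCAO ipsi (-0.73 to -0.51, adjusted p up to 0.307).

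By class, upper layer neurons carried 1 higher and 2 lower calls of 27 tested genes against Sham and 3 lower calls against MCAO contra (all genes 6.09% and 4.23%). Other cortical neurons had 1 higher and 1 lower of 26, then 2 lower (all genes 4.91% and 2.55%), and layer 6 type neurons 2 lower of 24, then 3 higher and 2 lower (all genes 4.14% and 3.42%). The subcortical class had 1 higher call of 24 against Sham and none against MCAO contra (edgeR, 5 genes at an unadjusted p under 0.05, all genes 1.82% and 0.0775%). Those 5 genes were 1 higher and 4 lower, where 287 of all 7743 genes were higher and 286 lower at the unadjusted threshold. D1 and D2 MSNs had 1 higher and 1 lower each against Sham, and 1 higher and 2 lower each against MCAO contra, of 24 and 25 tested genes, where all genes had 3.81% and 2.68% in D1 and 2.75% and 2.06% in D2 MSNs. The parvalbumin type had its Cacnb2 call against MCAO contra alone (all genes 1.81% and 1.12%). The somatostatin type, CGE interneurons and other GABAergic neurons had none (edgeR), with 0 tests at an unadjusted p under 0.05 against Sham in all 3 and 1, 2 and 1 against MCAO contra. At the unadjusted threshold, all genes had 465 higher and 486 lower of 8353, 341 and 369 of 7465, and 107 and 130 of 3729 against Sham. Against MCAO contra they had 372 and 354, 341 and 318, and 94 and 115. In these classes few genes of any kind were called, 0.67%, 0.482% and 0.0268% of all tested genes against Sham and 0.0838%, 0.268% and 0.0536% against MCAO contra. The difference in response between classes was therefore tested directly, as a class by group term with library as a block. D2 minus D1 MSNs gave no call among 25 genes in either ipsi comparison (edgeR, 1 and 3 genes at an unadjusted p under 0.05, all genes 0.125% and 0.0624% called). MSNs minus cortical glutamatergic neurons gave none among 27 (5 and 5 unadjusted, all genes 1.15% and 0.862%), and upper layer minus other cortical neurons none among 28 (6 and 4 unadjusted, all genes 0.706% and 0.653%). For these class by group terms the share of all genes at the unadjusted threshold is not given here. Calls came from 4 pairs of classes: layer 6 type minus other cortical neurons with 1 of 26 genes in each comparison (all genes 0.493% and 0.37%), the parvalbumin type minus cortical glutamatergic neurons with 2 of 26 and 0 (all genes 1.39% and 1.21%), subcortical minus cortical glutamatergic neurons with 3 of 27 and 0 (all genes 0.846% and 0.182%), and OPCs minus cortical glutamatergic neurons with 1 and 3 of 26 (all genes 2.08% and 2.73%).

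In OPCs, 15 channel genes were tested. Against Sham 2 were lower (13.3%, all genes 5.99%). At an unadjusted p under 0.05 it was 5, and 505 of all 5924 genes tested were lower at that threshold. Against MCAO contra 2 were lower (13.3%, all genes 6.58%). At an unadjusted p under 0.05 it was 8, and 567 of all 5924 genes were lower. No channel gene was higher, and none differed between MCAO contra and Sham (all genes 0.0675%). The median log2 fold change was -0.37 and -0.42 in the 2 ipsi comparisons, where the median over all genes was 0.02 and 0.01. Cacna1e was at 525 and 397 CPM in the Sham, 556 and 416 CPM in the contra and 321 and 210 CPM in the ipsi libraries, which were below the other 4. It fell by 0.87 ± 0.23 on the log2 scale against Sham (adjusted p = 0.0171) and by 0.98 ± 0.19 against MCAO contra (adjusted p = 0.00139). Cacna1b was at 87.5, 96.5, 135, 140, 56.7 and 56.2 CPM (12, 9, 58, 35, 21 and 35 UMIs). It fell by 1.33 ± 0.26 against MCAO contra (adjusted p = 0.00118), the third of the calls that remained without any 1 library (-1.35 to -1.31, adjusted p at most 0.0253), while its change against Sham was -0.71 (adjusted p = 0.329). Cacna2d1 was at 416, 311, 256, 268, 251 and 159 CPM. It fell by 0.92 ± 0.24 against Sham (adjusted p = 0.0169), although mMCAO ipsi was level with the contra libraries. The calls of Cacna1e and Cacna2d1 against Sham were lost without Sham L (-0.59, adjusted p = 0.414, and -0.62, adjusted p = 0.436) or sMCAO ipsi (-0.55, adjusted p = 0.213, and -0.56, adjusted p = 0.256), and that of Cacna1e against MCAO contra without mMCAO contra (-0.72, adjusted p = 0.135).

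Neuronal RNA in OPCs also differed between the groups. A list of pan-neuronal genes summed in OPCs to 6015, 5780, 4575, 4733, 3527 and 2792 CPM in the same order of libraries, and in oligodendrocytes to 4476, 3967, 3039, 3136, 2280 and 1296 CPM, lowest in the ipsi libraries in both. The order of the other groups was not that of each channel gene. The list was lower in MCAO contra than in Sham, while Cacna1b in OPCs was higher in both contra libraries and Cacna1e overlapped. From such genes, free neuronal RNA was estimated at 30.5%, 30.8%, 20.8%, 27.6%, 15.9% and 14.0% of OPC UMIs. The same estimate was 26.3%, 14.7%, 15%, 14.7%, 9.82% and 4.49% in oligodendrocytes and 19.1%, 24.9%, 8.42%, 13.7%, 7.32% and 7.63% in astrocytes. It takes OPCs to make no RNA of these genes themselves, which was not tested. Any such RNA of their own could make the estimate and the subtraction below too large. In oligodendrocytes, Cacna1e was at 149, 119, 70.1, 77.4, 48.7 and 17.3 CPM and Cacna1b at 98.7, 67, 51.7, 58.1, 35.4 and 17.3 CPM, again lowest in the ipsi libraries. Cacna2d1 was at 326, 313, 201, 200, 213 and 166 CPM there, with mMCAO ipsi above both contra libraries. With the estimate subtracted, no channel gene was called in OPCs in either ipsi comparison: the log2 fold change of Cacna1e was -1.27 ± 0.32 against MCAO contra (adjusted p = 0.0539) and -0.83 ± 0.39 against Sham (adjusted p = 0.381), that of Cacna1b -3.57 ± 0.91 against MCAO contra (adjusted p = 0.0617) and that of Cacna2d1 -1.40 ± 0.57 against Sham (adjusted p = 0.285). Cacna1b had 12, 9, 58, 35, 21 and 35 UMIs in OPCs before the subtraction and fewer after it. Its larger value after subtraction therefore rests on very few UMIs and is not read as a larger fall. Cacna1e against MCAO contra and Cacna2d1 against Sham also had values further from 0 than before the subtraction, and Cacna1e against Sham was about the same. The SEs were all larger, so the loss of these calls does not show that the falls became smaller. How far free neuronal RNA accounts for them cannot be told from this fit. Cycling genes also differed, summing to 1234 and 1047 CPM in OPCs of the ipsi libraries and 129 to 280 CPM in the others, and their part in the channel results was not tested. The OPC markers themselves were at 10778 to 13086 CPM in all 6 libraries. Scn3a, the α subunit that OPCs held at the neuronal level, was at 146, 236, 235, 156, 275 and 218 CPM, with overlapping groups.

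**Figure D5:**
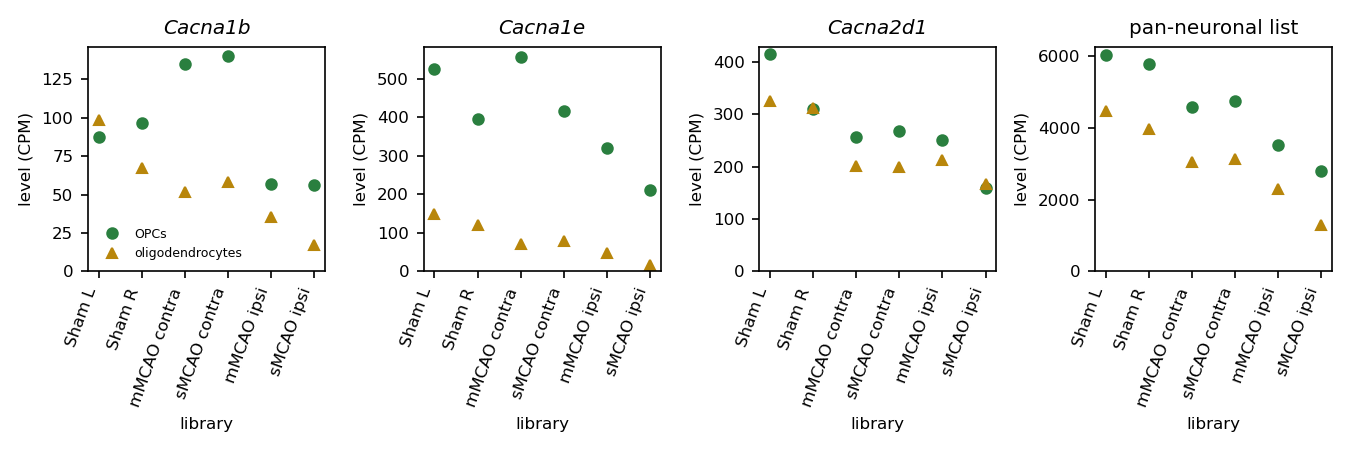
Levels in CPM of Cacna1b, Cacna1e, Cacna2d1 and the summed pan-neuronal list in each library (x axis), with circles for OPCs and triangles for oligodendrocytes. Cacna1e in OPCs lies at 397 to 556 CPM in the Sham and contra libraries and at 321 and 210 CPM in the ipsi libraries, and the pan-neuronal list is lowest in the same 2 libraries.

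Moderate and severe infarctions have 1 ipsi library each, so their difference has no test. As ratios of CPM with exact 95% intervals, which hold counting error only, the interval excluded 1 for 13 of 24 channel genes in other cortical neurons, 12 of 23 in D1 MSNs, 11 of 22 in layer 6 type and 9 of 24 in upper layer neurons. The 2 Sham hemispheres, which have the same condition, gave 5 of 25, 3 of 24, 3 of 24 and 6 of 25, and the severe over moderate contra libraries 5 of 26, 4 of 23, 8 of 24 and 10 of 26. In upper layer neurons the contra pair thus had more such genes than the ipsi pair. The classes above had the most such genes in the ipsi pair. Elsewhere it gave 7 of 22 in subcortical neurons, 7 of 22 in the parvalbumin type, 6 of 22 in D2 MSNs and 6 of 19 in CGE interneurons. It gave 5 of 19 in other GABAergic neurons, 4 of 20 in the somatostatin type and 5 of 13 in OPCs. The contra pair had 6 of 24, 2 of 23, 5 of 24, 0 of 22, 1 of 17, 4 of 21 and 2 of 15 there. The share over all genes was not counted, so these counts only describe the levels and are no result about channel genes. They also depend on the UMIs of each library, which differed between the pairs. Upper layer neurons, for example, had 7736922 and 3214112 UMIs in the ipsi pair and 7730949 and 4721578 in the contra pair. Scn9a in sMCAO ipsi was 2.09 times (1.77 to 2.46) its level in mMCAO ipsi in other cortical neurons, 1.69 times (1.32 to 2.18) in D1 MSNs and 1.74 times (1.3 to 2.34) in D2 MSNs, but 0.601 times (0.369 to 0.941) in the parvalbumin type. Cacna2d3 in layer 6 type neurons was 1.96 times (1.86 to 2.07) higher in severe infarction, and Scn4b in other cortical neurons 0.475 times (0.288 to 0.751) its moderate level.

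The partners of these channels were counted in a list of 46 genes, over 354 tests in neuron classes. Against Sham 4 were higher and 28 lower (all genes 3.13%), against MCAO contra 10 higher and 13 lower (all genes 1.99%), and between MCAO contra and Sham 1 was lower (all genes 0.16%). Genes of the active zone, listed as scaffolds that hold calcium channels at release sites, had 9 lower and 0 higher calls of 60 against Sham. Against MCAO contra they had 4 lower and 0 higher. Most were calls of 1 gene, Unc13a, which primes vesicles. Against Sham it fell in 6 classes, by 0.97 in upper layer, 0.87 in other cortical and 1.12 in layer 6 type neurons, by 1.02 in D1 and 0.73 in D2 MSNs and by 0.84 in the parvalbumin type. It also gave all 4 calls against MCAO contra. The rest against Sham were Rims1 in upper layer (-0.67) and subcortical neurons (-0.65) and Bsn in subcortical neurons (-0.71). Calcium release and extrusion had 10 lower and 0 higher of 96, among them Slc8a2, a sodium-calcium exchanger, in upper layer neurons (-0.77), other cortical neurons (-0.72), layer 6 type neurons (-0.74) and D1 MSNs (-0.84). Against MCAO contra this group had 3 lower and 2 higher calls. The higher ones were Slc8a1, another sodium-calcium exchanger, in D1 (0.73) and D2 MSNs (0.75). Regulators of calcium channels went both ways, with 4 higher and 7 lower of 87 against Sham and 6 higher and 5 lower against MCAO contra. Camk2a, a kinase of excitatory neurons, fell in the 4 glutamatergic classes (-1.15 in upper layer, -0.88 in other cortical, -0.78 in layer 6 type and -0.66 in subcortical neurons), while Stac2, an adaptor of L-type channels, rose in upper layer neurons (2.32), the parvalbumin type (0.86) and the somatostatin type (2.47). Rrad, an inhibitor of calcium channels, rose in upper layer neurons against MCAO contra (2.84 ± 0.63, edgeR adjusted p = 0.0373). The Stac2 rises had SEs of 0.53, 0.23 and 0.49 (edgeR adjusted p = 0.0317, 0.0463 and 0.0228). Levels and fits without 1 library are not given here for any partner gene, so how far these calls depend on single libraries is not shown. Proteins of the initial segment and the sodium leak channel complex had 1 lower call each against Sham, of 71 and 40. Against MCAO contra, the sodium channel binding gene Fgf13 rose in D1 (1.04) and D2 MSNs (0.73) and fell in upper layer neurons (-0.80). In OPCs 7 of 32 partners were lower against Sham (all genes 5.99%) and 5 against MCAO contra (all genes 6.58%), with none higher. The estimate of free neuronal RNA was also lowest in OPCs of the ipsi libraries, and its part in the partner calls is not given here.

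Many neuron nuclei lay outside the gate, in clusters with other leading genes. A cluster led by Ndst4 and Glra3 held 8003 nuclei, of which the gate had taken 9.45%. Scn9a in this cluster was at 123 and 129 CPM in the Sham, 154 and 175 CPM in the contra and 154 and 206 CPM in the ipsi libraries, moderate before severe. Every value lay above the subcortical class, and that of sMCAO ipsi within the range of the cholinergic nuclei. In mMCAO the ipsi and contra libraries were level. Of 26 channel genes tested there, Cacna2d2 alone was called against Sham (all genes 3.37%), at 204 and 209 CPM in the Sham, 178 and 171 CPM in the contra and 113 and 149 CPM in the ipsi libraries. The log2 fold change was -0.68 ± 0.09 (adjusted p = 0.000857), with both ipsi libraries lowest. Against MCAO contra no channel gene was called in this cluster (edgeR, all genes 0.0555%). At an unadjusted p under 0.05, 3 were lower there, where 633 of all 12609 genes were. MCAO contra against Sham gave no channel call either, but 1.51% of all genes. Cacna2d2 was thus called against Sham only, in a cluster where the contra libraries also differed from Sham. A cluster led by Chst9 and Foxp2 held 2999 nuclei and gave no call among 24 genes (edgeR, all genes 1.89%), although 6 genes had an unadjusted p under 0.05. Of these, 1 was higher and 5 lower against Sham, where 602 of all 8582 genes were higher and 578 lower at that threshold. Both clusters were added after the data had been seen.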

How the data were processed

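The authors isolated nuclei from frozen coronal tissue of each hemisphere, made 10x libraries and counted reads, introns included, with Cell Ranger 7.0.0 against mRatBN7.2, per the labels and methods. The deposited values are UMI counts as Cell Ranger gave them, with no normalization. The removal of free RNA and of doublets that the methods describe is not part of these counts. How reads that match several genes were treated is not given in the sources used here.

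Nuclei with at least 500 UMIs, 250 to 5000 genes and at most 5% mitochondrial UMIs were kept. Each was assigned to 1 of 17 classes by 148 marker genes, if the log-likelihood led the next class by at least 5 and at least 3 UMIs of at least 2 own markers were present. Of 174 markers listed, 10 (among them Pvalb) were not analysed here. UMIs were summed per library and class (at least 20 nuclei in every library) and tested with edgeR 4.0.16 in R 4.3.3: TMM, filterByExpr, quasi-likelihood F test on all 6 libraries, Benjamini-Hochberg adjustment per class and comparison, with calls at adjusted p below 0.05 where the log2 fold change was 0.6 or more in size. Class comparisons had the library as a block. In simulated counts, a log2 change of 1 was recovered for 17.5% of 200 genes in OPCs and 32.5% (other GABAergic) to 72.5% (layer 6 type) in neurons, with 1 to 8 unchanged genes called per class. Intervals cover counting error only.

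The channel genes and the lists were chosen with earlier results of these data known. Genes given in every library were those called in either ipsi comparison, and those with at least 100 CPM in a class; the others are given by range and counts. A few of the channel genes enter the counts and medians, but their values are not reported here. Partners were counted by calls, and only some of the called ones were named. Alternatives were DESeq2 1.42.0, other size factors, no filter, a stricter gate (a lead of 15, 6 UMIs and 3 genes), Leiden clusters, doublets left out (the 5% of nuclei most like simulated doublets), only the 4 libraries compared, each library left out, and a replicate block. Libraries of the same rats (per the labels) were taken as pairs for that block; deviations from the group means correlated with r of 0.00 to 0.14 across classes. Free neuronal RNA in OPCs was estimated from pan-neuronal genes and subtracted as a further alternative. The class by group terms and the 2 clusters outside the gate were added after the data had been seen. The study's mouse and imaging data were not used here.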

Additional observations from a re-analysis of the deposited data

Results flagged for a closer look

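These results stood out because the change in MCAO ipsi differed between classes in a test of the difference itself (edgeR, class by group term with library as a block). Each value is the log2 fold change in the first class minus that in the second, with its SE.

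Scn4b fell more in layer 6 type than in other cortical neurons, by -1.42 ± 0.31 against Sham (adjusted p = 0.0326, all genes 0.493% called) and by -1.40 ± 0.30 against MCAO contra (adjusted p = 0.0388, all genes 0.37%). In other cortical neurons it was at 11.7, 11.2, 14.3, 16.9, 12.7 and 6.03 CPM in Sham L, Sham R, mMCAO contra, sMCAO contra, mMCAO ipsi and sMCAO ipsi, so that mMCAO ipsi lay within the range of the rest. Between the parvalbumin type and cortical glutamatergic neurons the Scn4b difference was 1.90 ± 0.47 against Sham (adjusted p = 0.0117, all genes 1.39%), from only 9, 9, 30, 11, 26 and 3 UMIs in the parvalbumin type. Cacna2d3 also differed between these classes, by -0.66 ± 0.14 against Sham (adjusted p = 0.00151). It was at 174, 178, 156, 178, 123 and 126 CPM in the parvalbumin type, lowest in both ipsi libraries, and at 1276, 1175, 1296, 1319, 1343 and 1678 CPM in the cortical neurons, highest in both.

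In subcortical against cortical glutamatergic neurons, 3 genes differed against Sham (all genes 0.846%), Cacna1g and Cacna2d3 among them. The Cacna1g difference was 1.09 ± 0.29 (adjusted p = 0.0422), with 42.9, 29.6, 80.0, 116, 48.3 and 96.2 CPM in subcortical neurons, where the contra libraries were as high as the ipsi libraries. The Cacna2d3 difference was -0.84 ± 0.16 (adjusted p = 0.00112), with 1060, 1186, 1070, 793, 863 and 712 CPM in subcortical neurons.

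In OPCs against cortical glutamatergic neurons, the difference was -0.98 ± 0.25 for Cacna2d1 against Sham (adjusted p = 0.0102, all genes 2.08%). Against MCAO contra (all genes 2.73%) it was -1.18 ± 0.28 for Cacna1b (adjusted p = 0.00267), -1.0 ± 0.19 for Cacna1e (adjusted p = 4.73e-05) and 2.17 ± 0.59 for Cacna1h (adjusted p = 0.0122). In the cortical neurons Cacna1b was level, at 388, 368, 427, 431, 386 and 375 CPM. Cacna1h in OPCs rested on 2, 2, 3, 5, 8 and 22 UMIs and was not tested there alone. Free neuronal RNA, which was lowest in OPCs of the ipsi libraries, was not subtracted in these 4 tests.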

How the results depend on the processing

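With 2 libraries a group, calls across conditions were few and depended on the settings, while those between classes varied less. MCAO ipsi against Sham in neuron classes gave 12 calls, 6 with DESeq2, 20 with no filter on low counts and 1 to 27 without 1 library (1 without Sham L, 4 without Sham R, 27 without mMCAO ipsi). MCAO ipsi against MCAO contra gave 17 calls, 6 with DESeq2, 7 in a fit of only the 4 libraries compared and 2 to 21 without 1 library (3 without mMCAO contra, 2 without sMCAO contra, 9 without either Sham library). MCAO contra against Sham gave 0 calls, 3 with no filter, 5 with only the 4 libraries compared and 0 to 5 without 1 library. In OPCs the 2 calls against Sham became 0 with DESeq2, with free neuronal RNA subtracted, with only the 4 libraries compared and with the stricter gate, and 0 to 3 without 1 library; the 2 against MCAO contra became 1 with DESeq2, 0 with free neuronal RNA subtracted and 1 to 4 without 1 library; MCAO contra against Sham stayed at 0 in OPCs without any 1 library. Between classes, the 13 calls of MSNs against cortical neurons were 13 to 16 without 1 library, the 13 of MGE interneurons 11 to 14, the 21 of OPCs 20 to 21 and the 1 of D2 against D1 MSNs 1 to 2, and 2 with the stricter gate. The cause of these shifts was not tested.

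Of the 33 calls of single genes across conditions, 13 remained with DESeq2, 17 with only the 4 libraries compared and 22 with the stricter gate, which lost 9; all 33 remained with other size factors and with no filter, and 32 with doublets left out. None changed direction. Of the 48 calls of single genes between classes, 1 of MGE interneurons against cortical neurons changed sign with Leiden clusters. With the rat pool as a replicate block, the calls against MCAO contra in neuron classes went from 17 to 20 (7 higher, 13 lower) and stayed at 2 in OPCs, and all 19 named calls remained. Without the library as a block, MGE interneurons against cortical neurons had 11 calls instead of 13, and no other count changed. Depth is a limit in OPCs, where Cacna1b rested on 9 to 58 UMIs a library, and for low genes in neurons, such as Scn4b and Cacna1h in layer 6 type neurons with as few as 7 and 8 UMIs.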

Other observations

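Cholinergic nuclei were too few to test, with 11 to 60 in a library, and their levels are given as values. Scn9a was at 197 to 261 CPM over the 6 libraries, from 29 to 59 UMIs each. Scn7a averaged 49.9 CPM there (16.3 to 95.4), from 4 to 13 UMIs a library. Cacna2d2 averaged 241 CPM and Cacna2d1 55.1 CPM. Scn7a was also counted with 49 UMIs (50.7 CPM) in astrocytes of sMCAO ipsi, and with 0 to 2 UMIs in astrocytes of each other library.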
